A study of Mus musculus with 18 samples.

Results

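Pof1b, Olfr1028, Xlr4a, Rgl3, Htr5b, Frmpd4, 1700003F12Rik, 3830417A13Rik and Isyna1 are 9 of the 22019 genes in the expression table, chosen by their measured mRNA signal, which in cells with the SUN1L construct stood apart from that in cells with the control construct KDEL. The members were found by their symbols, and all 9 were among the 16021 genes tested. They had been gathered as genes nearly lost with SUN1L. Of these, 7 were lower with SUN1L, but 1700003F12Rik and 3830417A13Rik among them kept a measurable signal. Htr5b and Isyna1 were higher with SUN1L, so the group is described here gene by gene.

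The libraries came from NIH 3T3 cells, a line of mouse embryonic fibroblasts, that carried a doxycycline-inducible construct introduced with a retrovirus. SUN1L cells expressed SS-HA-Sun1L-KDEL, the lumenal domain of SUN1 with a retention signal of the endoplasmic reticulum, and KDEL cells expressed SS-GFP-KDEL, in which GFP takes its place. The construct was induced in all cells (doxycycline at 1 μg/ml, 48 hr), which lay on soft gels of 1 kPa or stiff gels of 308 kPa. There were 3 libraries each of KDEL and SUN1L cells on 1 kPa and on 308 kPa, 3 of KDEL cells on 308 kPa with 25 μM Y27 (Y27632, a kinase inhibitor), and 2 of KDEL cells on 308 kPa with 10 μM blebbistatin, an inhibitor of myosin II. The study's methods describe a further enrichment of the KDEL cells by sorting for fluorescence and give no such step for the SUN1L cells. Whether either stable line descends from 1 clone or many cells is not given in the sources used here. Construct and line therefore cannot be told apart among these 17 libraries.

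One further library, numbered 34 and here called the empty vector library, bears on that question. Its labels name an empty vector in place of a GFP-KDEL or SUN1L construct, 308 kPa, and an inhibitor that is Y27 in one label and blebbistatin in another, and its column in the table is numbered 35 and was matched to it by the heading. It was kept out of every group and test, except in the alternatives of the closing section that count it as Y27 or blebbistatin. Its Sun1 signal was 3656, within the 2785 to 3799 of the 11 KDEL libraries and far from the 38452 to 82617 of the 6 SUN1L libraries, so it did not have the Sun1 level of SUN1L cells. The value of each of the 9 genes in it was compared with the 5 KDEL libraries that had an inhibitor on 308 kPa and with the 3 SUN1L libraries on 308 kPa. It is 1 library, so each of these comparisons is a pair of values without a test.

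Signal here means the authors' normalized expression value, which is linear and has 1 as its lowest value. One read pair was worth 1.70 to 2.49 signal units, and the 18 libraries held an estimated 12670000 to 19460000 read pairs. A count of 0 in the empty vector library allows up to 3 read pairs, or a signal of 6.64, as a one-sided 95% limit. Other intervals given for it are two-sided exact 95% Poisson intervals of its estimated read pairs, rounded to whole pairs, and both cover counting error only. Of 11 fibroblast markers 10 were tested, and their summed signal was 623407 to 979554 in KDEL libraries, 602071 to 786437 in SUN1L libraries and 625133 in the empty vector library. Fap was the fibroblast marker that failed the filter. Summed markers of epithelium, blood, endothelium, muscle, neurons and germ line each overlapped between KDEL and SUN1L libraries, and no marker was called in any comparison, with 1 of 28 at an unadjusted p under 0.05 in limma on 1 kPa and 0 on 308 kPa. Fewer cells with a transcript and less transcript per cell cannot be told apart in these bulk libraries.

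The 9 genes have no common pathway. The LINC complex joins the nucleus to the cytoskeleton through SUN proteins of the inner and nesprins of the outer nuclear membrane, and an excess of the SUN1 lumenal domain displaces nesprins from SUN proteins. Pof1b binds actin and lies at the junctions of epithelial sheets. Frmpd4 is a scaffold with FERM and PDZ domains in neurons, Olfr1028 is 1 of the many olfactory receptors, and Htr5b is a serotonin receptor. Rgl3 belongs to the exchange factors that link Ras to the small GTPase Ral, Xlr4a to a family of X-linked genes first found in lymphocytes, and Isyna1 makes inositol phosphate from glucose 6-phosphate. For 1700003F12Rik and 3830417A13Rik no role is given here.

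On GRCm38, Pof1b lies on chromosome X from 112638431 to 112698651, Xlr4a on chromosome X from 73074345 to 73082478, Frmpd4 on chromosome X from 167471309 to 168577231 and 3830417A13Rik on chromosome X from 64173548 to 64178778. Chromosome X thus held 4 of the 9 genes, or 44.4%, beside 3.38% of the tested genes. Olfr1028 lies on chromosome 2 from 85951065 to 85952039, 1700003F12Rik on chromosome 2 from 154547085 to 154550003, Rgl3 on chromosome 9 from 21971527 to 21989453, Htr5b on chromosome 1 from 121509842 to 121528465 and Isyna1 on chromosome 8 from 70594481 to 70597288.

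Promoter windows of RefSeq, from 250 bases before to 50 bases after a gene's start on GRCm38.p6, were matched for 7 of the 9 genes. The windows of 3 genes are shown because these genes were the clearest cases of near loss with SUN1L that had a window. Another reason was that the empty vector library later set Rgl3 apart from Xlr4a, while its counting interval did not place Pof1b on either side. Capitals mark CpG pairs. All 3 genes lie on the minus strand, and the windows read 5′ to 3′ along the gene, at chrX:112698602-112698901 for Pof1b, chrX:73082458-73082757 for Xlr4a and chr9:21989404-21989703 for Rgl3.
Pof1b: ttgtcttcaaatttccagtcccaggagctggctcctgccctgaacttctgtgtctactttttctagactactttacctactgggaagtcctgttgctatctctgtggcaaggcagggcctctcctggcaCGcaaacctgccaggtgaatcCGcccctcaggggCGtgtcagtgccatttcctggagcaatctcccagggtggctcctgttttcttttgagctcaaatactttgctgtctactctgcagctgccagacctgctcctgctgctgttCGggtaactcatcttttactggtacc
Xlr4a: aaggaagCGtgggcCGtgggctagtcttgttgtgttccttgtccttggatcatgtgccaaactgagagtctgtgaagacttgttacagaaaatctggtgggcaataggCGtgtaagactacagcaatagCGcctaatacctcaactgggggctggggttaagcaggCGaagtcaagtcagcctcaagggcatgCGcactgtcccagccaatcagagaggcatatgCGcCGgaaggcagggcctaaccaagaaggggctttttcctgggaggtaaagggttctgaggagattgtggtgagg
Rgl3: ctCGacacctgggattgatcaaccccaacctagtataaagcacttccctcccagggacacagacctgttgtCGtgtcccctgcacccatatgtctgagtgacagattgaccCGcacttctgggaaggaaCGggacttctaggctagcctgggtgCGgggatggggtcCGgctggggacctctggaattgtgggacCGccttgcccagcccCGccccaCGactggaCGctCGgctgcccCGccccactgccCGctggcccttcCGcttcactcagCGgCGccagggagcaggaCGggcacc
The window of Rgl3 held 17 CpG pairs, that of Xlr4a 8 and that of Pof1b 4, where the median of 32851 windows was 7 (quartiles 3 and 20). Isyna1 had 24, 3830417A13Rik 8 and 1700003F12Rik 2, while the 3 windows of Frmpd4 had 3, 4 and 19. The window of 1700003F12Rik (chr2:154548654-154548953) lies inside the span given above for the gene, not at its beginning. Searched on both strands, GGGCGG was found 2 times in the window of Rgl3 and once in that of Pof1b (35.7% of all windows held it), and TATAAA once in that of Rgl3 (13.6% of windows). CCAAT was found once in the window of Xlr4a (37.4% of windows), CACGTG (7.15%) in none of the 3 and TGANTCA (7.81%) in none of them either. These are matches of letters in the reference, and no binding was measured.

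Pof1b had a signal of 30.5, 33.4 and 34.8 in the KDEL libraries on 1 kPa and of 22.1, 25.7 and 19.6 on 308 kPa. In SUN1L libraries it was 1, 1.74 and 3.15 on 1 kPa, and all 3 libraries on 308 kPa were at the lowest value of 1. Every SUN1L library thus held less than 2 read pairs. The log2 fold change, on the scale of log2(signal + 1) that understates differences of low genes, was −3.58 ± 0.29 (SE) on 1 kPa. On 308 kPa a floor of 3 read pairs over the group made the signal of KDEL cells at least 10.5-fold higher. The libraries with an inhibitor stayed with the other KDEL libraries, at 15.01, 17.4 and 26.4 with Y27 and 29.6 and 25.1 with blebbistatin. Earlier results of these data were known when the gene was chosen, so these libraries are no independent check. In the empty vector library Pof1b had 4.50, or 2 read pairs, with an interval from 0.536 to 15.98 that reached the lowest of the 5 KDEL libraries with an inhibitor.

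Olfr1028 gave the plainest separation among the receptors. Its signal was 57.98, 69.5 and 99.5 in KDEL libraries on 1 kPa, 48.6, 62.8 and 110.3 on 308 kPa, 81.0, 72.0 and 89.1 with Y27 and 82.5 and 71.7 with blebbistatin. SUN1L libraries had 1.17, 2.02 and 4.33 on 1 kPa and 1.77, 1 and 1 on 308 kPa. No SUN1L library came near the lowest KDEL library, and the log2 fold changes were −4.52 ± 0.42 (SE) on 1 kPa and −4.99 ± 0.42 (SE) on 308 kPa. At 4.34 or 2 read pairs, the empty vector library lay at the level of the highest SUN1L library (4.33 on 1 kPa) and above those on 308 kPa. Its interval from 0.536 to 15.98 ended far below the 71.7 of the lowest KDEL library with an inhibitor.

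Htr5b, the other receptor, ran in the opposite direction and rested on very few reads. SUN1L libraries had 9.81, 5.11 and 3.89 on 1 kPa and 3.63, 4.97 and 9.63 on 308 kPa, which is the worth of 2.00 to 4.50 read pairs. Of the 11 KDEL libraries 9 were at the lowest value of 1, and the others had 1.19 on 1 kPa and 2.16 on 308 kPa. The groups did not overlap, but the log2 fold changes of 1.73 ± 0.38 (SE) and 1.51 ± 0.38 (SE) were not called on either rigidity. Like the KDEL libraries, the empty vector library was at 1, and its upper limit of 6.64 reaches into the SUN1L range of 3.63 to 9.81.

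Rgl3 had the largest log2 fold change of the 9 genes. Its signal was 153, 176 and 174 in KDEL libraries on 1 kPa, 105, 146 and 123 on 308 kPa, 115, 179 and 147 with Y27 and 138 and 121 with blebbistatin. In SUN1L libraries it was 7.00, 6.81 and 1 on 1 kPa and 1.81, 4.97 and 1 on 308 kPa. The log2 fold changes were −5.07 ± 0.55 (SE) and −5.27 ± 0.55 (SE). In the empty vector library Rgl3 had 128, or 58 read pairs with an interval from 97.4 to 166, inside the range of the KDEL libraries and far above every SUN1L library. In this library Rgl3 was thus at the level of KDEL cells and Olfr1028 was not. Xlr4a had no read pair there, which set it apart from KDEL libraries only narrowly.

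Xlr4a was listed at 1 in all 3 SUN1L libraries on 1 kPa and at 1, 1 and 2.14 on 308 kPa. KDEL libraries had 10.3, 15.5 and 18.4 on 1 kPa and 23.9, 21.6 and 18.1 on 308 kPa. With Y27 they had 27.3, 21.1 and 8.22, and with blebbistatin 18.2 and 18.9. All 11 KDEL libraries were above all 6 SUN1L libraries. The mean of KDEL cells on 1 kPa was at least 7.38-fold higher than a floor of 3 read pairs over the SUN1L group, and the log2 fold change on 308 kPa was −3.25 ± 0.29 (SE). The empty vector library had no read pair of Xlr4a, and its one-sided upper limit of 6.64 lay under the lowest KDEL library at 8.22. The two-sided limit of 8.16 lay only just under it. That KDEL library itself held about 3.82 read pairs, and its own counting error is not in these limits.

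Frmpd4 was listed at 1 in all 6 SUN1L libraries and was low throughout. KDEL libraries had 7.50, 6.64 and 8.17 on 1 kPa, 4.33, 1.97 and 5.88 on 308 kPa, 1.76, 1.29 and 2.38 with Y27 and 1.99 and 8.06 with blebbistatin. These are about 4 read pairs or fewer, and against 3 read pairs over the SUN1L group the KDEL signal was at least 3.73-fold higher on 1 kPa and at least 1.89-fold higher on 308 kPa. Frmpd4 had 4.42, or 2 read pairs, in the empty vector library, and its interval from 0.536 to 15.98 covers every KDEL and every SUN1L library. This library does not place Frmpd4 on either side.

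1700003F12Rik and 3830417A13Rik kept a measurable signal in SUN1L cells. 1700003F12Rik had 86.7, 122 and 99.6 in KDEL libraries on 1 kPa, 59.4, 129.9 and 79.03 on 308 kPa, 98.1, 115 and 159 with Y27 and 93.2 and 101 with blebbistatin. In SUN1L libraries it had 8.69, 23.0 and 16.9 on 1 kPa and 3.74, 23.4 and 22.8 on 308 kPa. Its log2 fold changes were −2.68 ± 0.61 (SE) and −2.62 ± 0.61 (SE), and the spread within the SUN1L groups was wide. The empty vector library had 70.4 (48.4 to 99.9), above all SUN1L libraries and inside the range of all 11 KDEL libraries, though below each of the 5 with an inhibitor.

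3830417A13Rik had 60.03, 74.7 and 97.7 in KDEL libraries on 1 kPa, 79.9, 64.9 and 92.4 on 308 kPa, 73.9, 52.2 and 112 with Y27 and 60.9 and 80.1 with blebbistatin. SUN1L libraries had 7.00, 17.02 and 3.89 on 1 kPa and 5.44, 12.4 and 24.2 on 308 kPa. The log2 fold changes were −3.11 ± 0.55 (SE) and −2.61 ± 0.55 (SE). In the empty vector library it had 24.2, or 11 read pairs with an interval from 12.1 to 43.5, equal to the highest SUN1L library and below the lowest KDEL library at 52.2.

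Isyna1, the enzyme of inositol synthesis, was higher with SUN1L. KDEL libraries had 179, 201 and 269 on 1 kPa, 126, 172 and 229 on 308 kPa, 196, 235 and 230.4 with Y27 and 190.3 and 215 with blebbistatin. SUN1L libraries had 513, 485 and 636 on 1 kPa and 334, 437 and 569 on 308 kPa, so the lowest SUN1L library lay above the highest KDEL library. The log2 fold changes were 1.34 ± 0.27 (SE) and 1.35 ± 0.27 (SE). In the empty vector library Isyna1 had 381, or 172 read pairs with an interval from 326 to 442, above all 11 KDEL libraries and within the SUN1L range.

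**Figure D1:**
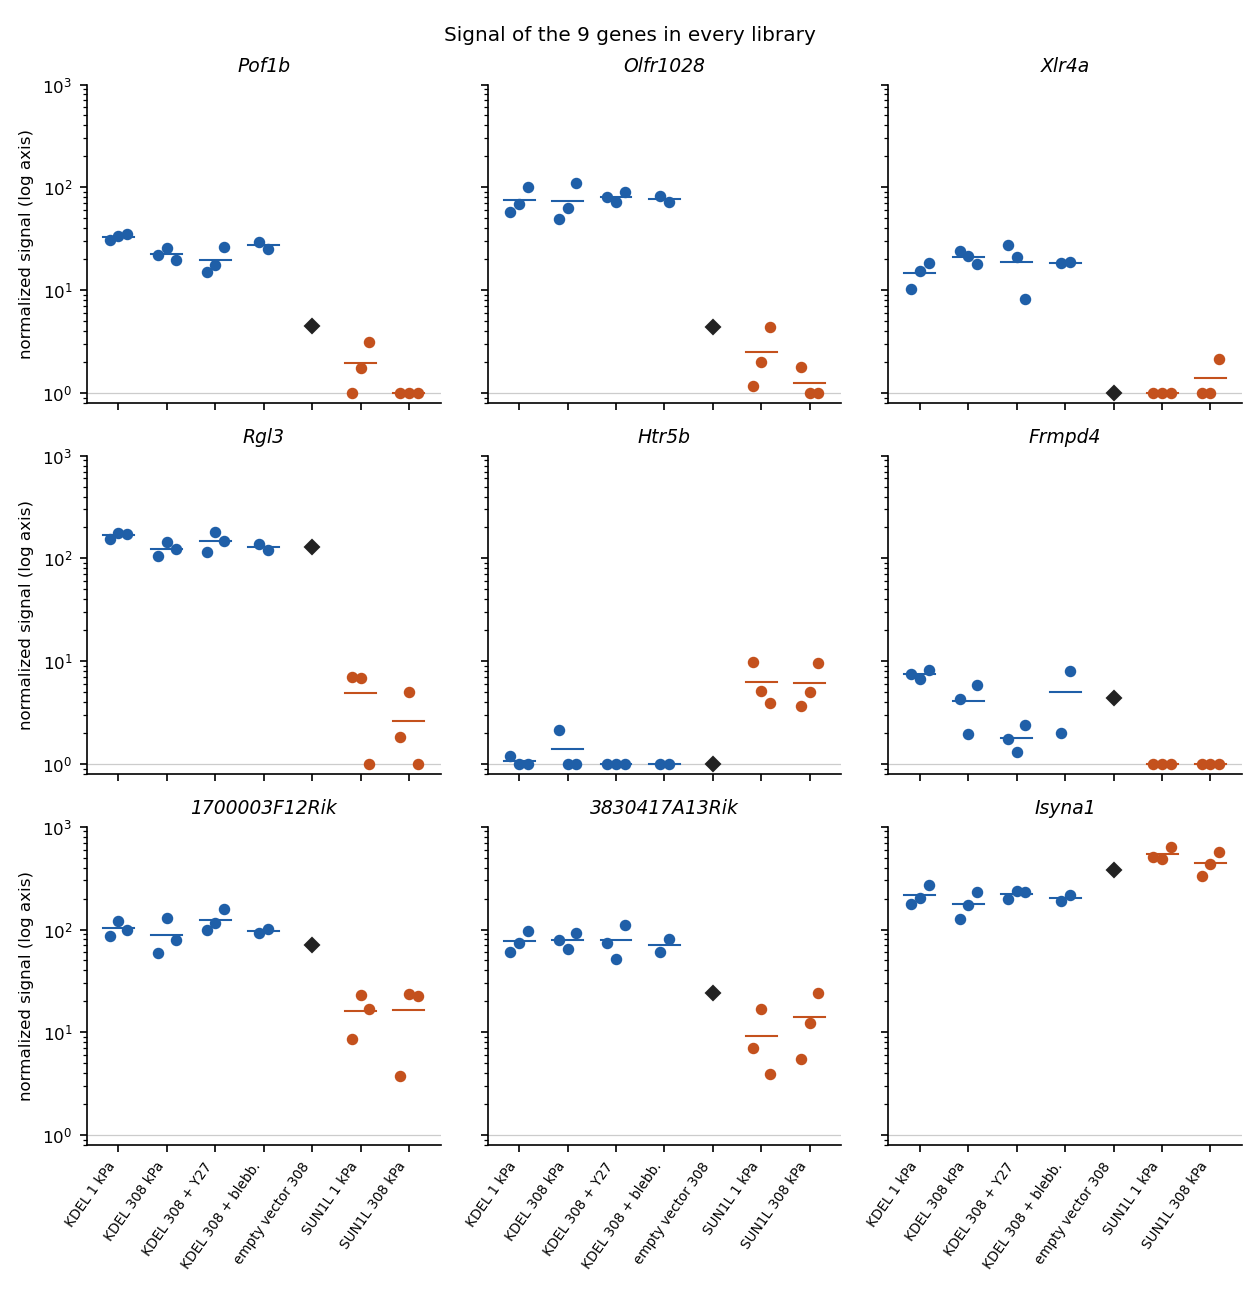
Normalized signal (log axis, lowest value 1) of each of the 9 genes in all 18 libraries, by group; points are libraries, short lines are group means, blue is KDEL, orange SUN1L and the black diamond the empty vector library. For 7 genes all 11 KDEL points lie above all 6 SUN1L points and for Htr5b and Isyna1 below them, while the diamond is at 128 for Rgl3, 4.34 for Olfr1028 and 1 for Xlr4a.

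Since the comparison of SUN1L with KDEL chose the genes, its calls describe them and test nothing. With a call at an adjusted p from limma under 0.05 and at least a 2-fold difference, 5 of the 9 were called lower on 1 kPa (Pof1b, Olfr1028, Xlr4a, Rgl3 and Frmpd4), where 0.0624% of tested genes were called lower. On 308 kPa 4 were called lower, the same without Frmpd4, where 0.0437% were. None of the 9 was called higher, at 0.025% of tested genes called higher on 1 kPa and 0.0187% on 308 kPa, but in the fit that blocks by run of library numbers (3 to 12, 15 to 24 and 27 to 36) Isyna1 was called higher on both rigidities. At an unadjusted p under 0.05 in limma there were 727 of the 16021 tested genes on 1 kPa and 406 on 308 kPa, the background for the counts of neighbours and lists given further on. All 6 SUN1L libraries lay below all 11 KDEL libraries for 7 of the 9, as for 0.393% of tested genes, and above them for 2, as for 0.268%. The call of Frmpd4 on 1 kPa was the least steady, since it remained in 3 of 12 fits that each left out 1 library. Pof1b, Olfr1028, Xlr4a and Rgl3 were called in 12 of 12 such fits on either rigidity.

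The comparisons within KDEL cells asked whether the genes also moved with rigidity or with an inhibitor where they were present. They are not independent of the choice, since they share KDEL libraries without inhibitor with it. For rigidity these are the KDEL libraries on 1 kPa and 308 kPa, and for the inhibitors those on 308 kPa. Earlier results of these data were also known when the genes were chosen. Of the 9 genes 0 were called between 308 kPa and 1 kPa in KDEL cells, 0 with Y27 and 0 with blebbistatin, and in each of these comparisons 0% of the tested genes were called. At an unadjusted p under 0.05, limma gave 1 of the 9 (Frmpd4) for rigidity, beside 219 of all tested genes, 0 for Y27 beside 929, and 0 for blebbistatin beside 487. The comparison of 308 kPa with 1 kPa in SUN1L cells likewise called 0 of the 9 and 0% of tested genes, with 0 of the 9 at an unadjusted p under 0.05 beside 310 of all tested genes in limma, but most members had few or no reads there.

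The log2 fold changes of the 9 genes between the rigidities in KDEL cells ran from −0.82 for Frmpd4 to 0.52 for Xlr4a, with limma's adjusted p of 1 for each. For Pof1b the value was −0.54, with a 95% interval from −1.17 to 0.10. For Rgl3 it was −0.43, with an interval from −1.64 to 0.78. With Y27 the values ran from −0.78 for Frmpd4 to 0.51 for 1700003F12Rik, with limma's adjusted p between 0.854 and 0.997. With blebbistatin they ran from −0.22 for Htr5b to 0.27 for Pof1b, with limma's adjusted p of 1. The 95% intervals stayed within a 2-fold change in either direction for 2 of the 9 genes in the rigidity comparison, 6 with Y27 and 3 with blebbistatin, and those of the others reached past 2-fold. For Olfr1028 the lowest bound of the 3 intervals was −0.9996, beside its −4.52 between SUN1L and KDEL cells on 1 kPa, and for Rgl3 it was −1.64 beside −5.07. With 3 libraries against 3, the exact permutation p of 1 gene cannot go below 0.1.

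**Figure D2:**
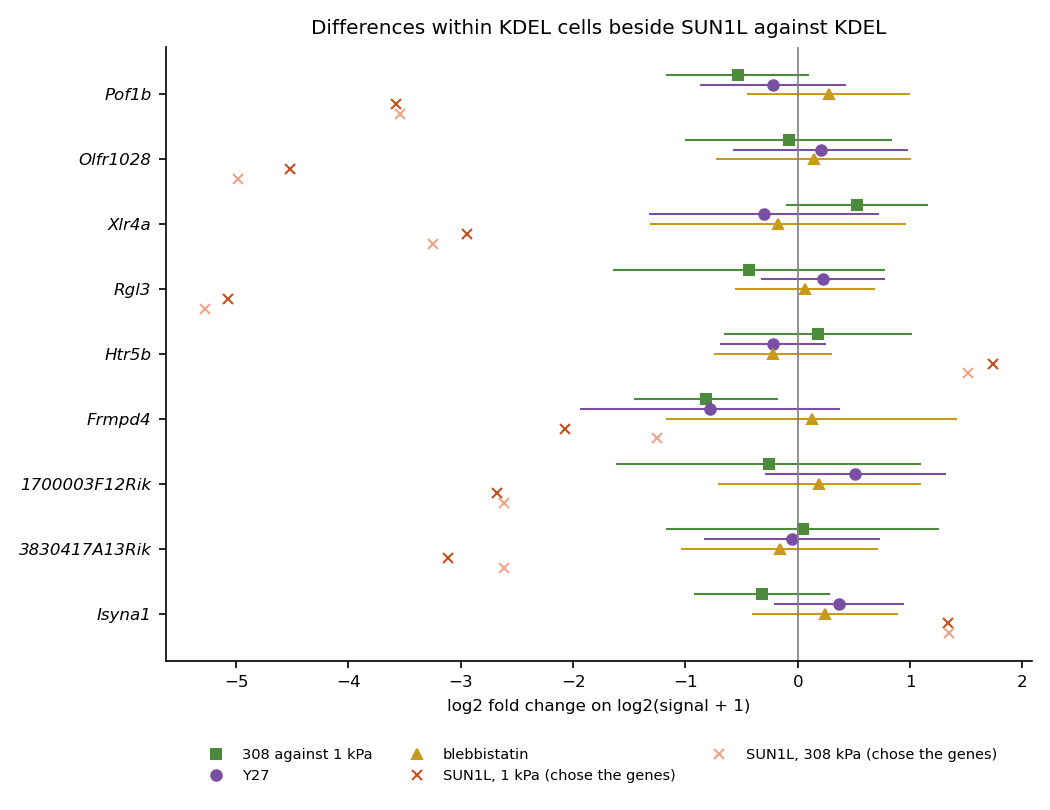
Log2 fold change of the 9 genes on log2(signal + 1) in KDEL cells for 308 kPa against 1 kPa, Y27 and blebbistatin, with 95% intervals from limma, beside SUN1L against KDEL (crosses, no interval, since this comparison chose the genes). The KDEL values lie between −0.82 and 0.52, while the crosses of Rgl3 and Olfr1028 lie between −5.27 and −4.52.

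Libraries within the KDEL groups differed among themselves as well. Olfr1028 was highest in library 28 on 1 kPa, in library 32 on 308 kPa and in library 36 with Y27. These libraries fall in 1 run of library numbers (27 to 36), a division made here that no label names. Xlr4a was lowest in library 36 at 8.22, where the other 2 libraries with Y27 had 27.3 and 21.1. Whether a run of numbers marks a shared day is not given in the sources used here.

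To place the empty vector library, its distance was measured on log2(signal + 1) between the mean of the 3 SUN1L libraries on 308 kPa (position 0) and the mean of the 5 KDEL libraries with an inhibitor (position 1). It lay nearer to SUN1L for 5 of the 9 genes. Their positions were −0.07 for Xlr4a, 0.19 for Isyna1, 0.24 for Olfr1028, 0.38 for 3830417A13Rik and 0.41 for Pof1b. It lay nearer to KDEL for the other 4, at 0.78 for 1700003F12Rik, 0.98 for Rgl3, 1 for Htr5b and 1.72 for Frmpd4. The counting intervals separated the sides for Olfr1028, Xlr4a (narrowly), 3830417A13Rik and Isyna1, which were apart from all 11 KDEL libraries, and for Rgl3 and 1700003F12Rik, which were apart from all 6 SUN1L libraries. They did not do so for Pof1b, Htr5b and Frmpd4. The low signal of Olfr1028, Xlr4a and 3830417A13Rik and high signal of Isyna1 were thus also seen in 1 library with KDEL-level Sun1. The low signal of Rgl3 and of 1700003F12Rik was seen in SUN1L libraries and in no other. In the empty vector library 1700003F12Rik was still below all 5 KDEL libraries with an inhibitor.

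The empty vector library differed from KDEL libraries at many genes, which is the background for these positions. It was at least 2-fold below the mean of the KDEL libraries with an inhibitor for 4 of the 9 genes (Pof1b, Olfr1028, Xlr4a and 3830417A13Rik), as for 3.94% of tested genes, and at least 2-fold above it for 0 of the 9, as for 2.93%. It was below all 5 of these libraries for 5 of the 9, as for 19.4% of tested genes, and above all 5 for 1 of the 9 (Isyna1), as for 22.6%. The inhibitor of this library is uncertain, and no other library carried an empty vector.

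**Figure D3:**
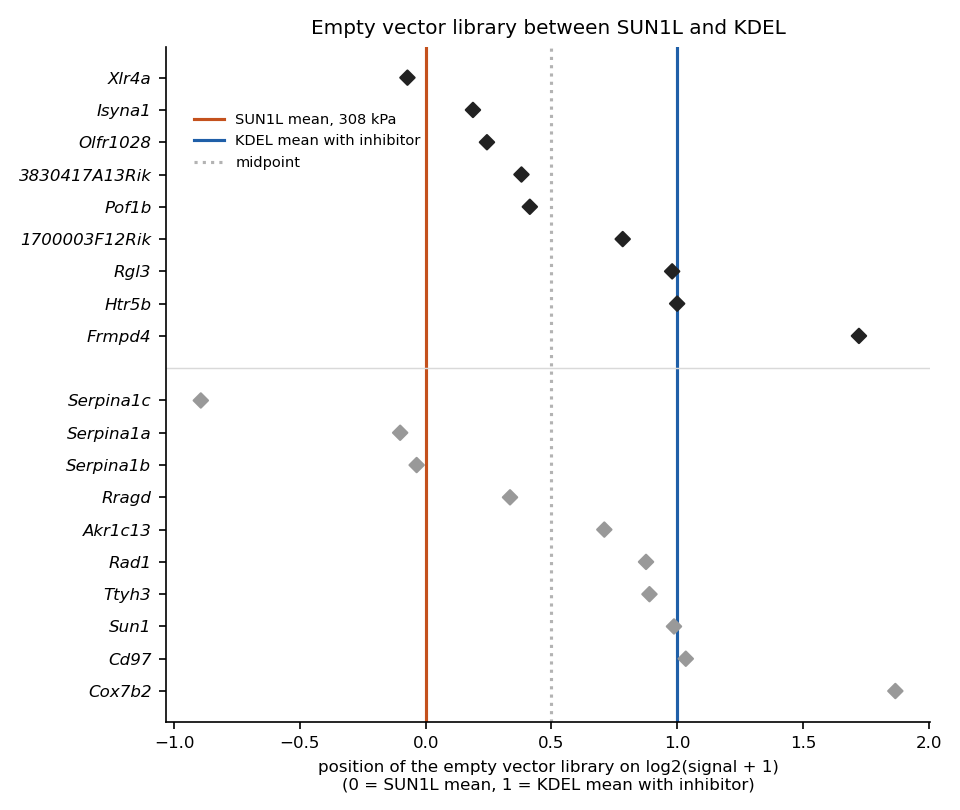
Position of the empty vector library for the 9 genes (black) and the other 10 genes called in a SUN1L comparison (grey), on log2(signal + 1), with 0 at the mean of SUN1L libraries on 308 kPa and 1 at the mean of KDEL libraries with an inhibitor. Xlr4a lies at −0.07, Rgl3 at 0.98 and Sun1 at 0.99.

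In all, 15 genes were called in at least 1 of the 2 SUN1L comparisons, 5 of them members. Of the other 10, Cd97, Rragd, Serpina1a, Serpina1b, Serpina1c and Ttyh3 were lower and Akr1c13, Cox7b2, Rad1 and Sun1 higher with SUN1L. Relative to these 2 means, the empty vector library lay nearer to KDEL for 6 of the 10 (Akr1c13, Cd97, Cox7b2, Rad1, Sun1 and Ttyh3) and nearer to SUN1L for 4 (Rragd, Serpina1a, Serpina1b and Serpina1c). For Cox7b2 it matched neither line, at 21.6 (interval 10.6 to 40.7) against 64.0 to 107 in KDEL and 325 to 474 in SUN1L libraries. Serpina1a, which encodes an inhibitor of serine proteases, had 63.1 in the empty vector library (interval 43.0 to 92.1), against 413 to 826 in KDEL libraries with an inhibitor and 65.3 to 99.4 in SUN1L libraries on 308 kPa. Serpina1a, Serpina1b and Serpina1c are near-identical copies among which reads can be shared, so they do not count as 3 separate cases. Ttyh3, a chloride channel family gene, had 1484 in the empty vector library, inside the 1377 to 2417 of KDEL libraries with an inhibitor and above the 194 to 386 of SUN1L libraries on 308 kPa.

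The genes with the pattern most like the mean of the 9 over the 18 libraries, each gene centred and among genes with a mean signal of at least 10, were Ttyh3 (Pearson r = 0.93), Cd97 (0.93), Luzp4 (0.92), Gm10439 (0.92) and Serpina1a (0.91). Sun1 (−0.96), Rad1 (−0.95), Adal (−0.92), Akr1c13 (−0.92) and Ano3 (−0.91) had the opposite pattern. These values mostly set SUN1L libraries against the others and share the libraries' scaling. Among single genes, Serpina1a was the most like Olfr1028 (0.95) and Xlr4a (0.95), and Ttyh3 the most like Rgl3 (0.97) and Pof1b (0.92). Sun1 was the most like Htr5b (0.92) and Gm7964 the most like Frmpd4 (0.81). Lipg was the most like 1700003F12Rik (0.94), Gm10439 the most like 3830417A13Rik (0.93) and Lamb3 the most like Isyna1 (0.89).

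The neighbours of the 9 genes on their chromosomes, 3 on each side, were examined to see whether a stretch of chromosome moved along. Of 54 neighbours 34 were tested and 0 were called in a SUN1L comparison, with 2 at an unadjusted p under 0.05 in limma on 1 kPa and 1 on 308 kPa. Only Xlr3a, 3815 bases from Xlr4a, differed at least 2-fold in the same direction in both, with log2 fold changes of −1.27 and −1.28. On 1 kPa the median log2 fold change of tested neighbours was 0.17 for Rgl3 (6 tested) and 0.08 for Isyna1 (5 tested). It was −0.09 for 1700003F12Rik (6 tested) and −0.16 for Htr5b (5 tested). With fewer tested, it was −1.12 for Xlr4a (4), −0.63 for Frmpd4 (4), 0.88 for Pof1b (2) and −0.14 for 3830417A13Rik (2). The nearest neighbour of Rgl3, Ccdc151, 418 bases away, had a mean of 40.3 in KDEL and 35.3 in SUN1L libraries. The 6 neighbours of Olfr1028, all olfactory receptor genes or pseudogenes no more than 46013 bases from it, were at or near the lowest value in both lines, with the highest mean at 1.09 for Olfr1029 in KDEL cells. Olfr1028 was thus the only gene of its 7 with a signal. 1700003F12Rik overlaps Necab3 on the opposite strand, and no setting for strand is given in the sources used here. Necab3 had a mean of 119 in KDEL and 118 in SUN1L libraries.

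The other genes of each family were described from lists that include the member. Of 1102 olfactory receptor genes in the table, 981 were at the lowest value in every library and 59 were tested, and Olfr1028 was the only one called, lower on both rigidities. Of the other 58, 3 had an unadjusted p under 0.05 in limma on 1 kPa and 4 on 308 kPa. The tested olfactory receptors had a median log2 fold change of 0.04 on 1 kPa and 0.08 on 308 kPa, beside −0.01 and −0.03 for all tested genes. Olfr56, with the highest mean signal of the list, ranged from 122 to 907 in KDEL and from 222 to 1096 in SUN1L libraries. Of 14 serotonin receptor genes 6 were tested and 0 called in limma, where 0 of the 5 besides Htr5b had an unadjusted p under 0.05 on 1 kPa and 1 on 308 kPa, and the medians of the 6 were 0.17 and 0.03. Htr2a, the highest of them, ranged from 51.6 to 192 in KDEL and from 47.1 to 183 in SUN1L libraries.

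Of 11 genes of the Ral pathway all were tested, and Rgl3 was the only one called, lower on both rigidities, with medians of −0.11 and −0.04. Of the other 10, 0 had an unadjusted p under 0.05 in limma on 1 kPa and 1 on 308 kPa. Its nearest relatives, named here after their values were seen, overlapped between the lines. Rgl1 ranged from 1065 to 2213 in KDEL and from 1016 to 1884 in SUN1L libraries, and Rgl2 from 1172 to 1782 and from 1312 to 1984. Rala and Ralb, the GTPases themselves, had log2 fold changes between −0.15 and 0.03. Of the 3 FRMPD scaffold genes in the table only Frmpd4 was tested, and Frmpd1 and Frmpd3 were at the lowest value in all 18 libraries. Of 10 junction genes set beside Pof1b all were tested and 0 called in limma, also with 0 at an unadjusted p under 0.05 on either rigidity, with medians of −0.03 and 0.08, among them Tjp1, a zonula occludens protein, at 3708 to 5333 in KDEL and 3625 to 5307 in SUN1L libraries. Pof1b itself is no member of that list.

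Of 9 genes of inositol synthesis and uptake 8 were tested and 0 called in limma, and 0 of the 7 besides Isyna1 had an unadjusted p under 0.05 on either rigidity, with medians of −0.09 and −0.03. Slc5a3, the sodium-coupled carrier of myo-inositol, had log2 fold changes of −0.34 and 0.20, and Impad1 of −0.32 and −0.20. Cdipt, which joins inositol to a lipid, had 0.13 and −0.03.

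In the Xlr family the empty vector library stood apart from all others. Of the 9 Xlr genes 6 were tested, and Xlr4a was the only one called, lower on both rigidities, with medians of 0.10 and 0.34 for the list. Of the other 5, 1 had an unadjusted p under 0.05 in limma on each rigidity. Their summed signal was 86.1 to 180.4 in KDEL and 145 to 198 in SUN1L libraries but 790.4 in the empty vector library. Xlr3c alone gave 703 of that (interval 628 to 785), where KDEL libraries had 49.9 to 117 and SUN1L libraries 118 to 165. Xlr3b was at 38.7 (21.9 to 60.2) and Xlr4b at 22.1 (10.6 to 40.7) in the empty vector library, both above all 17 other libraries, while Xlr4a was at the lowest value there. Copies of this family are alike in sequence, and reads of one could be counted for another, so their separate values are uncertain.

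**Figure D4:**
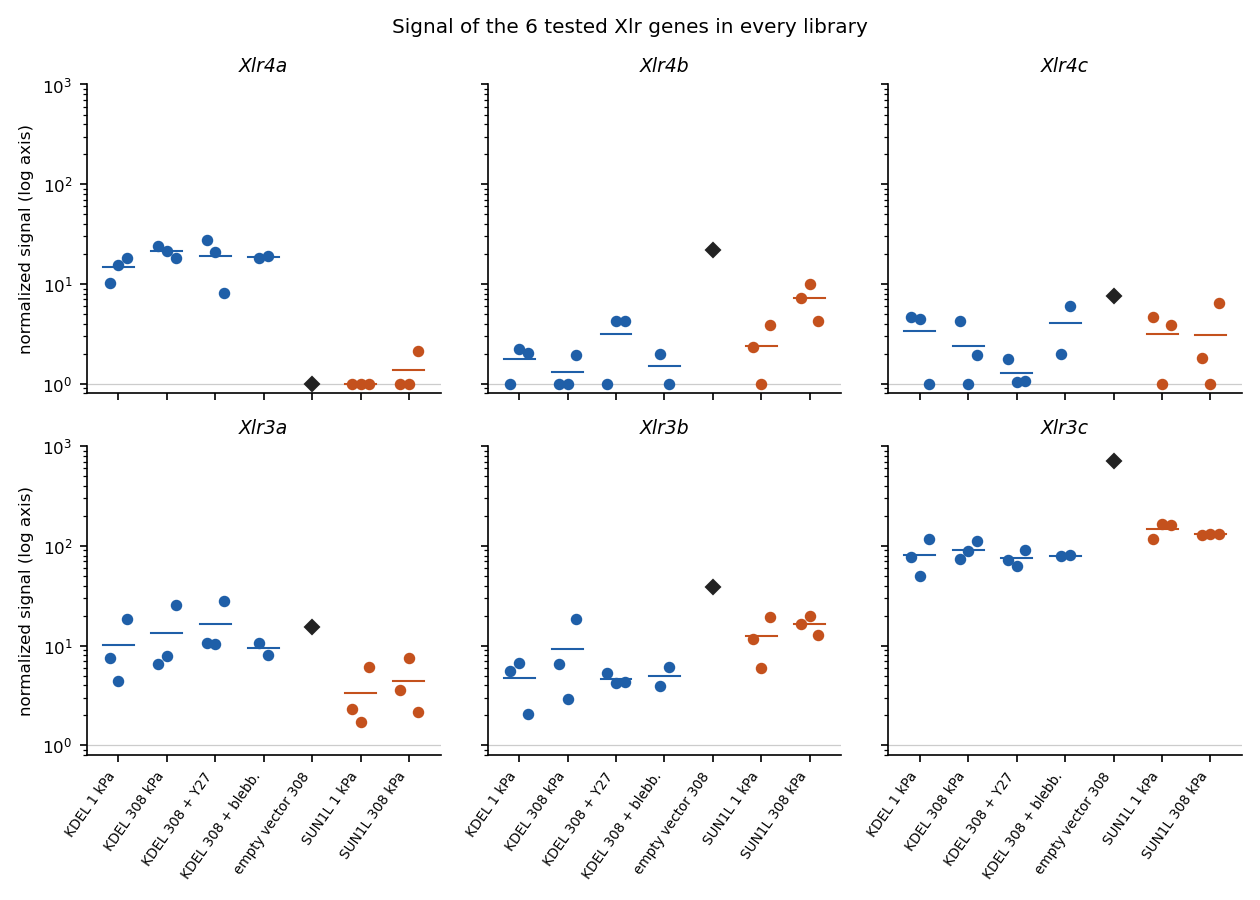
Normalized signal (log axis, lowest value 1) of the 6 tested Xlr genes in all 18 libraries by group, with group means as short lines, KDEL in blue, SUN1L in orange and the empty vector library as a black diamond. The diamond is at 703 for Xlr3c, 38.7 for Xlr3b and 22.1 for Xlr4b but at 1 for Xlr4a, where the KDEL libraries have 8.22 to 27.3.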

How the data were processed

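RNA of NIH 3T3 cells was sequenced in paired ends from 18 libraries, of which 17 fall into 6 groups. The authors aligned the reads (TopHat2 2.0, mm9, FastQC and SAMtools per the labels), quantified genes in AvadisNGS and deposited a normalized linear signal for each gene in each library, scaled by the trimmed mean of M-values and set to at least 1. Gene positions in the table are those of GRCm38 although mm9 is named, and only GRCm38 was used here. Whole reads were not recovered, so no count test was run. The worth of 1 read pair was estimated as the commonest low value above the lowest in each library, which was 1.70 to 2.49 signal units. Only 13.5% to 15.4% of the values above 1 lay close to a whole multiple of it, so read pairs are approximate. Values of a few units rest on a few read pairs.

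The 9 genes and all lists were chosen with earlier results of these data known. Tested genes exceeded 1 in 3 or more of the 18 libraries. They were fitted on log2(signal + 1) in limma 3.58.1 (R 4.3.3) (variance prior trended on the mean) in a fit of 12 libraries without inhibitor and a fit of 8 KDEL libraries on 308 kPa. P-values were adjusted by Benjamini and Hochberg over all 16021 genes, and a call needed an adjusted p under 0.05 and 2-fold. The code was tested on simulated data. The methods state 3 biological replicates per condition, and blebbistatin has 2 here. The labels do not number the replicates. Intervals and other steps used Python 3.11.15 and scipy 1.17.1.

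Besides the 9 genes, the text names Sun1, other called genes, the 5 genes most and least like the mean of the 9, neighbours that differ at least 2-fold, and the called and highest genes of each list. The gene most like each of the 9, the nearest neighbours of Rgl3 and Olfr1028, Necab3 and the other Xlr genes are additions made with their values in view. Alternatives were pseudocounts of 8 and 0.1, other filters, quantile scaling, 1 fit of 17 libraries, 1 prior variance, a block, no fold minimum, library 34 as either inhibitor and leaving out each library.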

Additional observations from a re-analysis of the deposited data

Results flagged for a closer look

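The empty vector library was used in no main comparison between groups. Its signal was examined here for the 9 genes and for all tested genes of the family, pathway and junction lists, without the cell type markers. For 4 of these genes it lay above all 11 KDEL libraries by more than its counting interval. Isyna1 had 381 (interval 326 to 442), where KDEL libraries had 126 to 269 and SUN1L libraries 334 to 636. Xlr3c had 703 (628 to 785), where KDEL libraries had 49.9 to 117 and SUN1L libraries 118 to 165. Xlr3b had 38.7 (21.9 to 60.2) and Xlr4b 22.1 (10.6 to 40.7), against at most 18.6 and 4.30 in KDEL and 19.9 and 9.94 in SUN1L libraries. These differences rest on 1 library and were not tested. Groups of 2 or 3 libraries are too small to single out a library within a group.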

How the results depend on the processing

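Pof1b, Olfr1028, Xlr4a and Rgl3 were called lower with SUN1L under every alternative on both rigidities, and the number of the 9 genes called was 4 to 6 on 1 kPa and 4 or 5 on 308 kPa. It was 0 in every rigidity and inhibitor comparison. With 17 libraries in 1 fit, 22 genes of the whole table were called on 1 kPa and 16 on 308 kPa, in place of 14 and 10, and 3830417A13Rik joined them on 1 kPa (limma adjusted p = 0.0292). Leaving out 1 library in turn gave 8 to 15 genes on 1 kPa, with 8 without KDEL library 4, and 0 to 3 with Y27, with 3 without KDEL library 8. Frmpd4 on 1 kPa lost its call in 9 of 12 such fits and with a pseudocount of 8, where its log2 fold change was −0.78. Htr5b and Frmpd4 have no value where a mean of at least 10 is required.

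With a replicate block on the runs of library numbers (3 to 12, 15 to 24 and 27 to 36), 17 and 12 genes were called, and Isyna1 was gained on both rigidities (limma adjusted p = 0.00685 and 0.00646). Libraries of 1 run deviated together with a median r of 0.33 over 40 pairs of libraries and a lowest of 0.09, which was 0.16 among the groups without inhibitor. The labels number no replicates, so this is a hint from the data and not the design. The block turned 3830417A13Rik with blebbistatin to 0.037 in log2.

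Counting library 34 as blebbistatin turned Pof1b to −0.51 and Olfr1028 to −1.15, and counting it as Y27 turned Olfr1028 to −0.78, none of them called. Without 1 library in turn, these uncalled log2 values changed sign. For rigidity in KDEL cells the ranges were −0.41 to 0.17 (Olfr1028), −0.044 to 0.29 (Htr5b) and −0.12 to 0.22 (3830417A13Rik). With Y27 they were −0.050 to 0.53 (Olfr1028), −0.63 to 0.18 (Xlr4a) and −0.33 to 0.21 (3830417A13Rik). With blebbistatin they were −0.11 to 0.47 (Olfr1028), −0.050 to 0.18 (Rgl3), −0.68 to 0.93 (Frmpd4), −0.062 to 0.50 (1700003F12Rik) and −0.36 to 0.033 (3830417A13Rik). The cause was not tested.

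Library 34 lay nearer to SUN1L for 5 of the 9 genes under every alternative, including other reference libraries chosen after seeing the data. On log2(signal + 8) its position moved to 0.27 for Pof1b and 0.13 for Olfr1028, and without blebbistatin library 22 to 2.88 for Frmpd4. Values of Htr5b and Frmpd4 rest on 4.50 read pairs or fewer, too few for a small difference to be detectable.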
